A study of Gallus gallus and Anas platyrhynchos and Coturnix japonica with 43 samples.

Results

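Translation initiation and elongation factors are the proteins that recruit messenger RNA and initiator tRNA to the ribosome, select the start codon and then move the ribosome along the message. The genes described here were those whose array annotation carries a symbol beginning with EIF and a digit from 1 to 6, or with EEF and the digit 1 or 2. That rule took in the core factors, their regulatory kinases and binding proteins, and EEF2KMT, a methyltransferase of elongation factor 2. It found 43 genes, represented by 79 cDNA clones in 90 spots, of 6428 named genes, 9948 named clones and 19200 spots on the array. Of the 43 genes, 18 rested on 1 clone and 25 on several.

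The study asked how an array of chicken cDNA clones reads tissues of other birds. It comprised 43 two-colour hybridisations in 12 groups. Chicken liver, breast muscle and abdominal fat came from broiler cockerels (Ross x Cobb) aged 6 weeks, and chicken hypothalamus from males of a line selected for leanness aged 9 weeks, with 4 arrays for each tissue. White turkey, Japanese quail and duck were each represented by 4 liver and 3 hypothalamus arrays, and American kestrel and Tree sparrow by 3 liver arrays each. Kestrels and sparrows came from captive colonies, quail were from a random-bred colony, and ducks were kept in floor pens, while the sources used here do not give the age and sex of these birds or the rearing of the turkeys. Line, age and extraction method differ between the chicken tissues: muscle and fat RNA was purified on CsCl gradients, and liver and hypothalamus RNA with a column kit. Each sample was labelled with Cy3, from 25 micrograms of total RNA, and hybridised against a Cy5-labelled pool of chicken liver, fat, breast muscle and hypothalamus RNA. Dyes were not exchanged on any array.

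Initiation begins when the EIF2 complex brings the initiator tRNA to the small ribosomal subunit, which EIF3 and other factors prepare, while the EIF4 factors recognise the cap of the messenger RNA and unwind its leader. The rate of the process is commonly set by phosphorylation, of EIF2 by stress kinases and of the EIF4E-binding proteins by the TOR kinase. In elongation, EEF1A delivers aminoacyl-tRNA and EEF2 moves the ribosome, and vertebrates carry a widely expressed form, EEF1A1, and a form restricted largely to muscle and neurons, EEF1A2. RNA of whole tissue was measured, so a lower number of cells of a type and less RNA per cell cannot be told apart.

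All levels are log2 ratios to the reference pool, with the sample most likely as the numerator, after setting the median of every array to 0 and averaging the clones of a gene. A level of 0 is the median spot of that array and is not a measure of abundance, and levels of different genes are not compared. Differences between groups are on the same log2 scale, with their standard error (SE), and were tested with limma over all 6428 genes. A gene was called at a Benjamini-Hochberg adjusted p under 0.05. Between species, the match of a bird's transcript to the chicken clone and the amount of that transcript cannot be told apart. Whether the arrays of a group stem from different animals is not stated in the labels, and the p-values therefore cover only the spread among these hybridisations, which may be technical.

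The tissue labels were checked against marker genes, and 3 arrays stood apart. The median of 10 skeletal muscle markers lay between 1.03 and 1.18 in chicken muscle replicates 1 to 3, and at -1.63 in replicate 4. In sparrow liver it lay at 1.40 in replicate 1, against -1.24 and -1.93 in the other arrays. The median of 10 neuronal markers lay at 0.76 and 0.31 in duck hypothalamus replicates 1 and 2 and at -0.52 in replicate 3. The library labelled chicken muscle replicate 4 thus lacked the muscle markers, and the library labelled sparrow liver replicate 1 carried them. Differences that rest on these 3 arrays are given without them as well where a test is reported. Quail liver also departed in part. Its neuronal median reached 0.17 on the highest array, against a group median of -0.96. The median of 5 glia and myelin markers reached 0.44 there, against a group median of -0.995. In quail hypothalamus the glia and myelin median lay lower than that 0.44 on every array, from -0.63 to -0.42. The neuronal median fell to -0.19 on the lowest quail hypothalamus array and to -0.09 on the lowest turkey hypothalamus array. In chicken liver the glia and myelin median reached 0.23 on its highest array, against a group median of -0.76. The neuronal median there reached -0.23, against a group median of -1.08. These quail, turkey and chicken liver arrays were all kept in the fits without the 3 arrays. The median of 11 liver markers lay below 0 in kestrel (at most -1.21) and sparrow liver (at most -0.94), against 0.50 to 1.23 in chicken liver, so the chicken clones did not mark those samples as liver. In duck liver that median ran from -0.75 to 0.11, below all chicken liver arrays and above duck hypothalamus (at most -1.15). In quail and turkey liver it ran from -0.01 to 0.86 and from -0.18 to 0.68. Within groups the correlation of arrays had a median of 0.30 over 57 pairs, and position in the print blocks accounted for 2.44% to 37.7% of the variance within an array.

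Across the 12 groups 2 of the 43 genes varied beyond the spread between replicates. The first was EEF1A2, the elongation factor of muscle and neurons (moderated F test of limma, adjusted p = 0.026). In chicken its mean was 0.50 in muscle, 0.06 in hypothalamus, -1.18 in liver and -1.14 in fat. The second was EIF4EBP1, the repressor that binds the cap-binding protein EIF4E (same test, adjusted p = 0.037). Its mean was 0.30 in chicken muscle, 0.095 in turkey liver, -1.78 in kestrel liver and -1.52 in turkey hypothalamus. This F test covers any difference among the 12 groups and does not test these orders. The share called, 4.65%, was near the 4.78% of all genes (307 of 6428), and at an unadjusted p under 0.05 it was 3 of 43 genes, 6.98%, against 14% of all genes. The EEF1A2 call was lost when muscle replicate 1, 2 or 3 was left out (adjusted p up to 0.073), and the EIF4EBP1 call under 13 of 43 single omissions (up to 0.12, without kestrel liver replicate 2). EEF1A2 also missed the threshold without centring, and EIF4EBP1 with 3 of the other scalings. The median range of the 12 group means was 0.995 over the 43 genes and 1.03 over all genes, and the median residual SD was 0.58 and 0.57. The narrowest range, 0.34, was that of EIF5B, the GTPase of ribosomal subunit joining, whose 2 clones correlated at -0.35. The widest, 2.08, was that of EIF4EBP1.

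**Figure D1:**
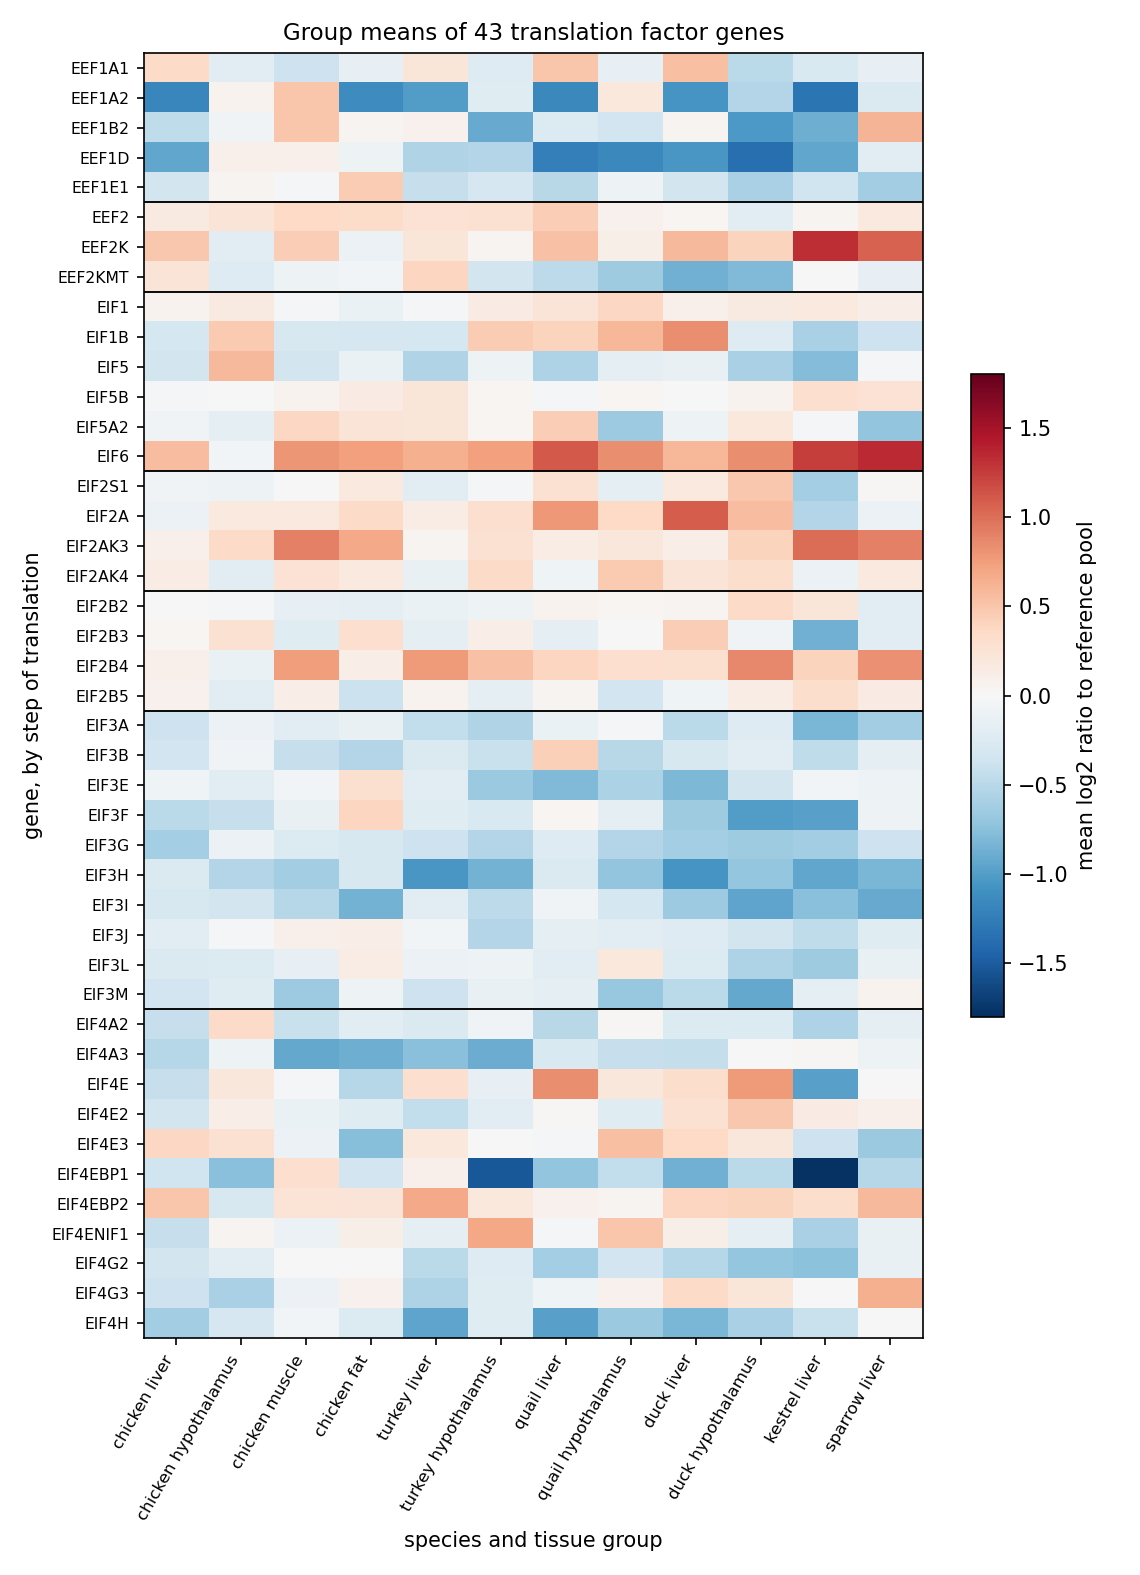
Mean log2 ratio to the reference pool (colour) of each of the 43 genes (vertical axis, ordered by step of translation, with lines between steps) in the 12 species and tissue groups (horizontal axis, 3 or 4 arrays each). EEF1A2 runs from -1.32 in kestrel liver to 0.50 in chicken muscle, EIF4EBP1 from -1.78 in kestrel liver to 0.30 in chicken muscle, and the 10 EIF3 subunits lie mostly below 0.

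EEF1A2 gave the clearest tissue pattern. In chicken muscle its level was 0.88, 1.42, 1.03 and -1.32 in replicates 1 to 4. In chicken hypothalamus it was 0.09, 0.38, -0.13 and -0.11, and in chicken liver -1.79, -1.17, -0.62 and -1.13. All hypothalamus arrays thus lay above all liver arrays, and 3 of the 4 muscle arrays lay above both. Chicken fat lay with liver, at -1.99, -0.34, -1.24 and -0.96. Muscle differed from the other 3 chicken tissues by 1.25 (SE 0.36, limma adjusted p = 0.13), which did not pass the test with 0.591% of all genes called. Without the 3 arrays that stood apart the difference was 1.86 (SE 0.29, adjusted p = 5.9e-05), on a muscle level of 1.11 ± 0.28 (SD, n = 3), and 1.35% of all genes were called. With quantile normalization and all arrays EEF1A2 also passed the test in muscle, where 1.17% of all genes were called.

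Chicken liver lay below the average of the other 3 chicken tissues for EEF1A2, which passed the test without the 3 arrays and not with all arrays. It did not lie apart from fat, with means of -1.18 in liver and -1.14 in fat. None of the 3 arrays is of chicken liver or fat, and leaving them out changed the muscle mean and the SE. The difference was -0.99 (SE 0.36, limma adjusted p = 0.27) with all arrays, where 1.99% of all genes were called, and -1.19 (SE 0.27, adjusted p = 0.0061) without the 3 arrays, where 2.35% were. For fat it was -0.93 (SE 0.36, adjusted p = 0.40) with 1.24% of all genes called, and -1.13 (SE 0.27, adjusted p = 0.019) without the 3 arrays, with 1.21%. Hypothalamus exceeded the average of liver, muscle and fat by 0.66 (SE 0.36, adjusted p = 0.65), or by 0.46 without the 3 arrays, with 0.482% of all genes called.

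Liver lay below hypothalamus for EEF1A2 in each of the 4 species that had both tissues, with differences that passed the test in chicken only and only without the 3 arrays. In chicken the difference was -1.24 (SE 0.44, limma adjusted p = 0.22), with 1.51% of all genes called, and with an SE of 0.32 and an adjusted p of 0.033 without the 3 arrays, where 1.65% were. None of the 3 arrays is of chicken liver or hypothalamus, so the difference stayed the same. Its SE, estimated over all groups, became smaller. In quail the hypothalamus arrays were at 0.28, 0.02 and 0.26 and the liver arrays at -0.67, -0.90, -2.04 and -1.02. In turkey they were at -0.04, 0.03 and -0.66 and at -1.18, -0.77, -0.78 and -1.30. In the mean over clones neither pair of groups overlapped, nor did the chicken groups. Of all genes 5.71%, 7.58% and 5.37% did not overlap in chicken, quail and turkey, against 6.98%, 6.98% and 4.65% of the members. The differences were -1.35 (SE 0.47, adjusted p = 0.28) in quail and -0.78 (SE 0.47, adjusted p = 0.89) in turkey. In duck the hypothalamus, at -0.07, -0.62 and -0.90, overlapped liver, at -0.86, -1.48, -1.40 and -0.50, and the difference was -0.53 (SE 0.47, adjusted p = 0.94), or -0.71 without duck hypothalamus replicate 3. The liver arrays of kestrel were at -1.11, -1.66 and -1.19, and those of sparrow at 1.11, -0.59 and -1.29 in replicates 1 to 3. A difference between species in the liver and hypothalamus contrast was not detected for EEF1A2 or any of the other 42 genes, and the moderated F test called 0.0156% of all genes.

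**Figure D2:**
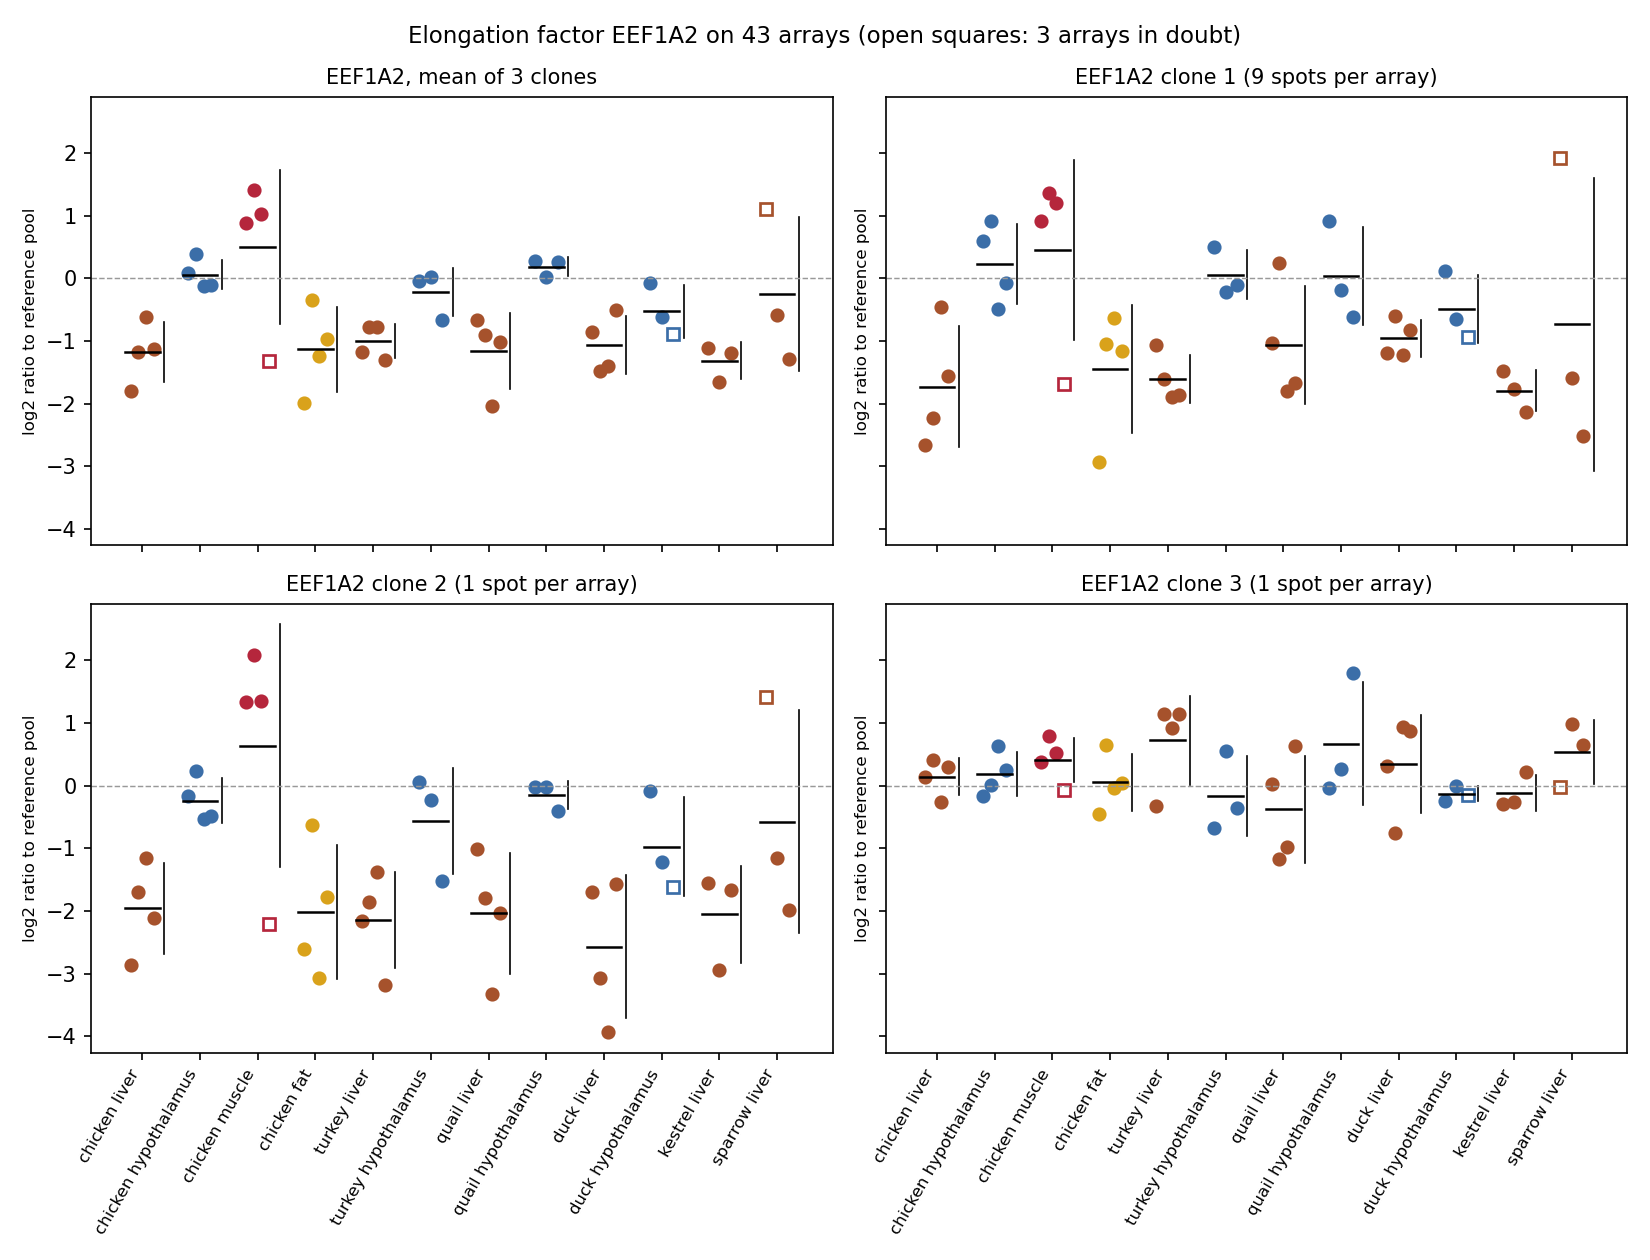
Log2 ratio of EEF1A2 to the reference pool (vertical axis) on each of 43 arrays in 12 groups (horizontal axis), as the mean of 3 clones and for each clone; horizontal bars are group means, vertical lines 1 SD, and open squares the 3 arrays that stood apart. Clones 1 and 2 share the pattern of muscle and hypothalamus above liver and fat, and clone 3 does not show it.

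The pattern came from 2 of the 3 clones. Clone 1 was printed in 9 spots and clone 2 in a single spot, and their levels correlated with r = 0.789 over the 43 arrays, the highest of 50 pairs of clones of the same member gene. Clone 3, in a single spot, correlated with them at -0.13 and 0.15. In quail clone 1 overlapped between tissues, with liver replicate 2 at 0.24 and hypothalamus replicates 2 and 3 at -0.18 and -0.62. It overlapped in chicken as well, with liver replicate 3 at -0.46 and hypothalamus replicate 3 at -0.49. Clone 2 overlapped in turkey, with liver replicate 3 at -1.37 and hypothalamus replicate 3 at -1.52. The liver minus hypothalamus difference of clone 3 was -1.05 in quail and 0.89 in turkey, and it entered the gene means. Fitted clone by clone, the F test over 12 groups gave an adjusted p of 0.051 for clone 1, 0.0030 for clone 2 and 0.80 for clone 3. Without the 3 arrays these were 3.5e-05, 3.3e-06 and 0.65, and muscle exceeded the other chicken tissues by 2.14 for clone 1 (limma adjusted p = 0.0012) and by 3.00 for clone 2 (adjusted p = 2.5e-05). The mean of 3 clones therefore gave a smaller difference than clones 1 and 2. EEF1A1 and EEF1A2 are close paralogues, and whether a clone also binds the transcript of the other gene was not tested.

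The 9 spots of clone 1 followed each other from array to array, with a spread within arrays. Pairs of them correlated at 0.580 to 0.938 over the 43 arrays, with a median of 0.846, and their SD within an array had a median of 0.504. In chicken muscle replicates 1 to 3 all 9 spots lay above 0, whereas in replicate 4 0 of 9 did, with values from -2.27 to -1.0. In sparrow liver replicate 1 all 9 spots lay above 0, from 1.31 to 2.33, and in the other sparrow livers 0 of 9 did. The values of EEF1A2 in both arrays thus moved with the muscle markers: MYL1, a fast muscle myosin light chain, was at 1.88, 1.34, 1.70 and -2.36 in the muscle replicates and at 1.97 in sparrow liver replicate 1. The part of muscle tissue in the sparrow reading was not tested.

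**Figure D3:**
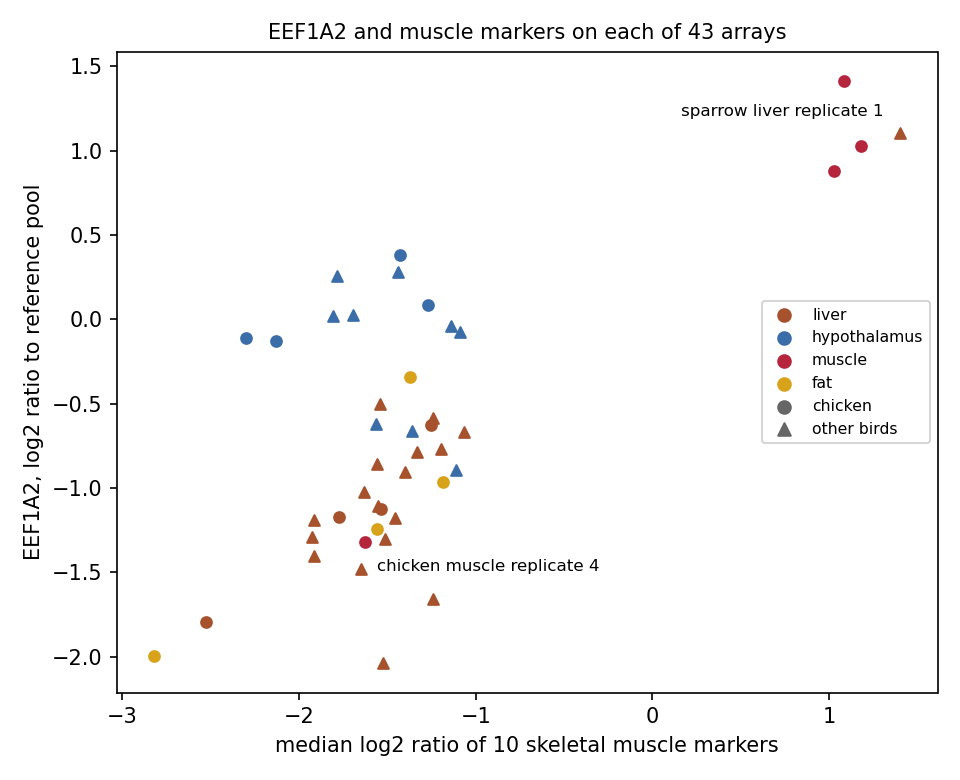
Level of EEF1A2 (vertical axis, log2 ratio to the reference pool) against the median log2 ratio of 10 skeletal muscle markers (horizontal axis) on each of 43 arrays; colours are tissues, circles chicken and triangles other birds. Chicken muscle replicates 1 to 3 and sparrow liver replicate 1 lie apart at the upper right, chicken muscle replicate 4 lies among the liver arrays, and most hypothalamus arrays are near 0 for EEF1A2 with low muscle markers.

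EEF1A1, the widely expressed paralogue, did not pass any test at the level of the gene. Its group means ran from -0.49 in duck hypothalamus to 0.54 in duck liver. In duck liver the arrays read -0.21, 0.41, 0.84 and 1.13 and in duck hypothalamus -0.08, -0.86 and -0.53, a difference of 1.03 (SE 0.37, limma adjusted p = 0.91) that was 1.01 without duck hypothalamus replicate 3. In that contrast 0 genes of the whole array were called by limma, against 347 (5.4%) at an unadjusted p under 0.05. In quail all 4 liver arrays, at 0.44, 0.05, 1.17 and 0.32, lay above the hypothalamus arrays, at -0.16, -0.18 and -0.11, and the difference was 0.64 (adjusted p = 0.69). In each of the 4 species the liver minus hypothalamus difference was above 0 for EEF1A1, from 0.46 to 1.03, and below 0 for EEF1A2, and none of the EEF1A1 differences passed the test. Of its 3 clones, clone 3 varied over the 12 groups (clone-level F test, adjusted p = 0.020), with means of 1.73 in duck liver and 1.32 in quail liver against 0.04 in chicken liver. Its correlations with clones 1 and 2 were 0.12 and 0.18, so the gene mean joined clones that read differently.

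EEF1B2 and EEF1D, the other measured subunits of elongation factor 1, showed wide spread. EEF1B2, which recharges EEF1A with GTP, was at 0.70, 0.68, -0.04 and 0.68 in chicken muscle and at -0.35, -1.0 and -1.77 in duck hypothalamus. Its 2 clones correlated at 0.660, the highest value after that of EEF1A2. EEF1D, a further exchange subunit, had its lowest mean in duck hypothalamus, at -0.84, -2.16 and -1.08, against -0.02, 1.21, -0.62 and -0.22 in chicken hypothalamus. Those groups did not overlap, and the difference was -1.45 (SE 0.55, limma adjusted p = 0.45), or -1.59 (adjusted p = 0.84) without duck replicate 3. In that contrast 6.6% of all genes and 9.3% of the members did not overlap. EEF1E1, a scaffold-associated protein of the tRNA synthetase complex, had group means from -0.62 to 0.45, the highest in chicken fat.

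EEF2, the translocase, was among the steadier genes, with group means from -0.20 in duck hypothalamus to 0.44 in quail liver. Its clones disagreed, with 2 of the 3 clone pairs at correlations of -0.54 and -0.49. EEF2K, the kinase that inhibits EEF2, had its highest means in kestrel and sparrow liver. The kestrel arrays were at 0.39, 1.98 and 1.61, the sparrow arrays at 0.10, 1.96 and 1.15 in replicates 1 to 3, and the chicken liver arrays at 0.97, 0.83, -0.29 and 0.45. They overlapped, and neither difference passed the test; that of sparrow was 0.58, and 1.06 without sparrow replicate 1 (limma adjusted p = 0.37).

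EEF2KMT, which methylates EEF2, read lower in duck than in chicken liver and narrowly missed the threshold. The duck arrays were at -0.30, -0.59, -1.54 and -1.05 and the chicken arrays at 0.20, 0.17, -0.11 and 0.69. The groups did not overlap, and the difference was -1.10 (SE 0.29, limma adjusted p = 0.061), the smallest adjusted p of the 688 tests of 43 genes in 16 contrasts. In that contrast 0.762% of all genes were called and 6.24% did not overlap, against 6.98% of the members. The difference passed the test with quantile normalization (limma adjusted p = 0.037, with 1.07% of all genes called) and with centring within print blocks (adjusted p = 0.013, with 1.31%). Leaving out 1 of the 8 arrays at a time it passed the test once, at -1.29 without duck liver replicate 1 (limma adjusted p = 0.033), and was -0.88 without duck liver replicate 3 (adjusted p = 0.37). Over the 6 livers its F test gave an adjusted p of 0.059, with 1.79% of all genes called and 0 of the 43 members. With centring within print blocks that test called EEF2KMT and 2.21% of all genes. Over the 4 hypothalami the F test called 0 of the 43 members and 0.296% of all genes. Of its 2 clones, clone 1 read -0.63, -1.33, -1.88 and -1.50 in duck liver, and clone 2 read 0.04, 0.15, -1.19 and -0.60. Both lay lower in replicates 3 and 4, and over all arrays they correlated at 0.23. Neither clone passed the clone-level limma test of duck against chicken liver. Low means of EEF2KMT were not confined to duck: they were -0.47 in quail liver and -0.64 in quail hypothalamus.

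**Figure D4:**
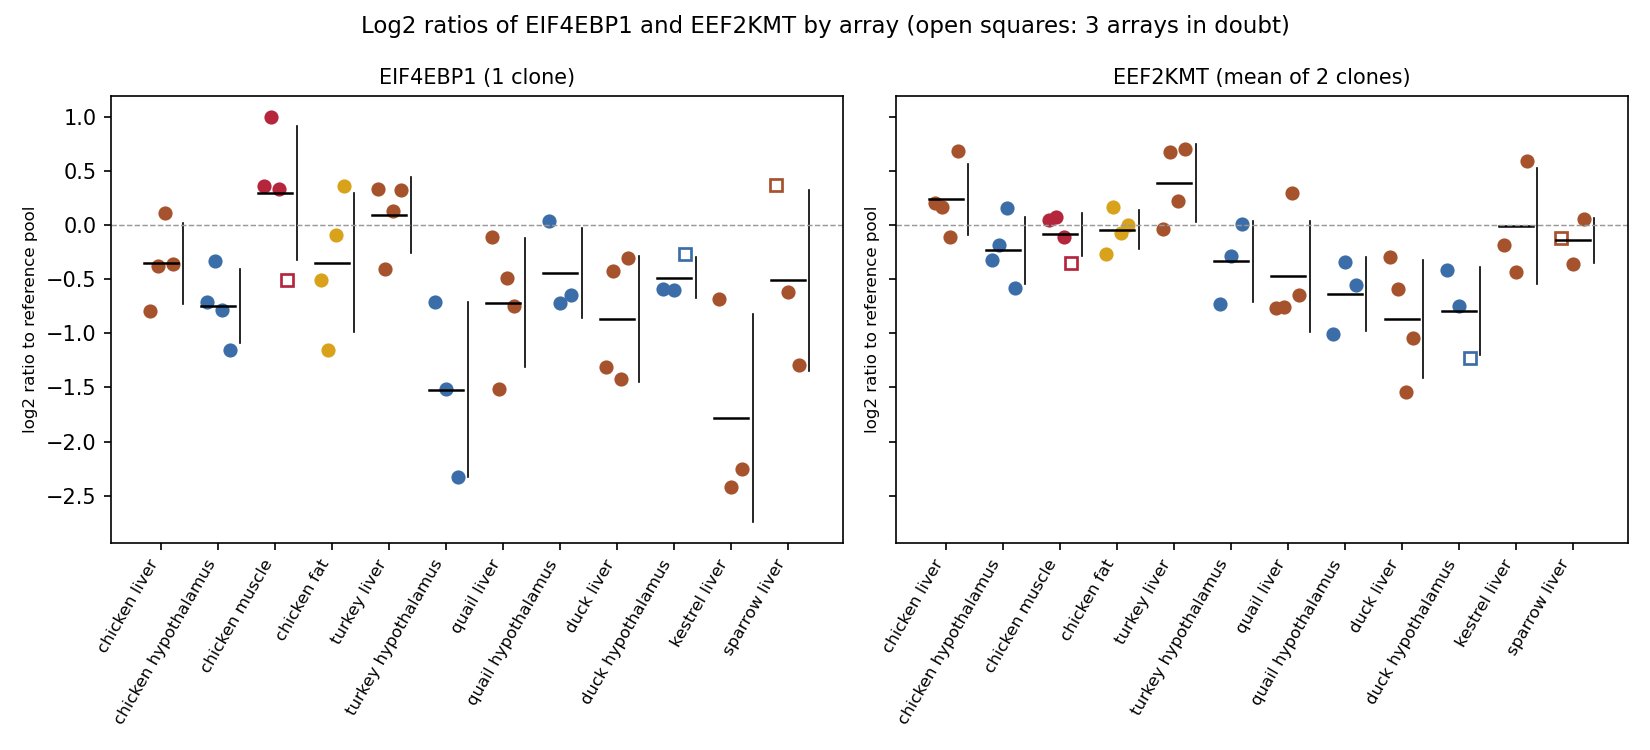
Log2 ratio to the reference pool (vertical axis) of EIF4EBP1 and EEF2KMT on each of 43 arrays in 12 groups (horizontal axis); horizontal bars are group means, vertical lines 1 SD, and open squares the 3 arrays that stood apart. EIF4EBP1 is lowest in kestrel liver and turkey hypothalamus, and EEF2KMT in the duck groups. Without replicate 3 the EEF2KMT mean of duck hypothalamus is -0.58, above that of quail hypothalamus at -0.64.

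EIF4EBP1 is the most studied of the proteins that sequester EIF4E when the TOR kinase is inactive. It was read by 1 clone in 1 spot, so no second clone checks its values. In chicken muscle it was at 0.36, 1.00, 0.33 and -0.50, and in chicken hypothalamus at -0.71, -0.33, -0.79 and -1.16. The lowest muscle value was again that of replicate 4, and the muscle and hypothalamus arrays overlapped only there. Muscle exceeded the other 3 chicken tissues by 0.78 (SE 0.33, limma adjusted p = 0.54), and by 1.05 (SE 0.35, adjusted p = 0.20) without the 3 arrays that stood apart. The muscle level was then 0.56 ± 0.38 (SD, n = 3), and the F test over 12 groups gave an adjusted p of 0.011, with 6.58% of all genes called.

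In turkey EIF4EBP1 read higher in liver than in hypothalamus, the opposite order to that of EEF1A2. The liver arrays were at 0.34, -0.41, 0.13 and 0.33 and the hypothalamus arrays at -0.71, -1.52 and -2.33. The groups did not overlap, and the difference was 1.61 (SE 0.44, limma adjusted p = 0.077), in a contrast where 0.685% of all genes were called. Leaving out 1 of the 7 arrays at a time it passed the test once, at 2.02 without turkey hypothalamus replicate 1 (limma adjusted p = 0.032), and was 1.21 without replicate 3 (adjusted p = 0.68). In chicken, quail and duck the same difference was 0.39, -0.27 and -0.38, the last being -0.27 without duck hypothalamus replicate 3. The F test of the difference between species gave a limma adjusted p of 0.94, so a species effect was not established.

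Kestrel liver had the lowest mean of EIF4EBP1, with arrays at -0.68, -2.42 and -2.25, against -0.80, -0.38, 0.11 and -0.36 in chicken liver. They overlapped through kestrel replicate 1. The difference was -1.43 (SE 0.44, limma adjusted p = 0.12), with 1.21% of all genes called. Leaving out 1 of the 7 arrays at a time it passed the test once, at -1.98 without that replicate (limma adjusted p = 0.019), and was -1.11 without kestrel replicate 2 (adjusted p = 0.66). In duck liver the arrays were at -1.31, -0.42, -1.42 and -0.31, in quail liver at -0.11, -1.52, -0.49 and -0.75, and in sparrow liver at 0.37, -0.62 and -1.29. Each of these groups overlapped chicken liver.

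No EIF4 factor passed the test in a contrast with all arrays. EIF4EBP2, the second binding protein, was above 0 in 11 of 12 groups and below it in chicken hypothalamus, where it was at -0.56, -0.74, 0.15 and 0.00 against 0.29, 1.12, -0.16 and 0.76 in chicken liver. The difference between liver and hypothalamus was 0.79 (SE 0.36, limma adjusted p = 0.52). EIF4E, the cap-binding protein itself, was at 0.98, 1.37, 0.60 and 0.40 in quail liver and at -0.83, -1.61, 0.74 and 0.01 in chicken liver, a difference of 1.26 (SE 0.52, adjusted p = 0.40). Its chicken arrays spread from -1.46 to 0.43 in fat and from -1.47 to 1.47 in hypothalamus, and from -0.29 to 0.11 in muscle. The related cap-binding proteins EIF4E2 and EIF4E3 had group means from -0.44 to 0.48 and from -0.77 to 0.55, with EIF4E3 lowest in chicken fat.

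The helicase EIF4A2 was at 0.91, 0.66, -0.15 and -0.05 in chicken hypothalamus and lay below that group's mean of 0.34 in each other group. EIF4A3, its relative in the exon junction complex, was at -0.09 in chicken hypothalamus and at -0.92, -0.88 and -0.52 in chicken muscle, fat and liver. Both exceeded the average of the remaining chicken tissues by 0.68, with limma adjusted p of 0.62 and 0.67, and by 0.66 and 0.74 without the 3 arrays that stood apart. EIF4H, which stimulates the helicase, lay below 0 in all 12 groups, lowest in quail liver. The scaffold EIF4G3 had arrays in duck and sparrow liver that all lay above those of chicken liver, by 0.71 (adjusted p = 0.76) and 1.00 (adjusted p = 0.62) in the mean, where 6.24% and 6.6% of all genes and 6.98% and 2.33% of the members did not overlap. Without the 3 arrays that stood apart the sparrow difference was 1.31 (limma adjusted p = 0.24). EIF4ENIF1, the carrier of EIF4E into the nucleus, ranged from -0.58 to 0.69.

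EIF4G2, a scaffold that lacks the EIF4E binding site, was measured by 4 clones that read differently. Its gene mean lay between -0.74 in kestrel liver and 0.01 in chicken muscle. Clones 1 and 2, which correlated at 0.42, were low in quail liver at -1.49 and -1.38, where clone 3 was at 0.74. Clone 2 was also low in duck liver (-1.46) and turkey liver (-1.20), where clone 3 was at 0.47 and -0.03. A clone of EIF4G2 passed the clone-level F test of limma (adjusted p = 0.046) and missed it without the 3 arrays (0.083), where another clone passed (0.096 with all arrays, 0.050 without). The gene mean did not pass the F test of genes.

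No gene of the EIF2 branch was called. EIF2S1, the subunit that stress kinases phosphorylate, had group means from -0.62 in kestrel liver to 0.49 in duck hypothalamus. Its 2 clones correlated at -0.22. EIF2AK3, the kinase of endoplasmic reticulum stress, was the only member whose mean lay above 0 in all 12 groups, as for 5.94% of all genes. Its highest levels were in kestrel liver at 0.75, 1.13 and 1.13. Those arrays did not overlap chicken liver, at 0.31, -0.26, 0.38 and -0.06, and the difference was 0.91 (SE 0.40, limma adjusted p = 0.44). In that contrast 8.37% of all genes and 4.65% of the members did not overlap. EIF2AK4, the kinase of amino acid shortage, was higher in turkey, quail and duck hypothalamus than in chicken hypothalamus without overlap, by 0.55, 0.68 and 0.53, and the limma adjusted p was 0.61 or above. In these contrasts 4.04%, 5.71% and 6.6% of all genes did not overlap, and 2.33%, 4.65% and 9.3% of the members. The duck difference was 0.42 without duck replicate 3. The 2 clones of EIF2AK4 correlated at -0.35, so its mean joined clones that read differently. The 3 comparisons share the chicken arrays.

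EIF2A, an alternative carrier of initiator tRNA, read 1.06, 0.98, 0.95 and 1.36 in duck liver. The chicken liver arrays were at -0.69, -1.12, 0.87 and 0.51, all lower, and the difference was 1.19 (SE 0.46, limma adjusted p = 0.40). The 4 measured subunits of EIF2B, which reloads EIF2 with GTP, had medians near 0 in every group, between -0.08 and 0.27. EIF2B4 was above 0 in 11 groups, with chicken hypothalamus the exception, and EIF2B3 was lowest in kestrel liver at -0.87. The 2 clones of EIF2B2 correlated at -0.62, the lowest of the 50 clone pairs.

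The 10 measured subunits of EIF3, the scaffold on the small ribosomal subunit, lay mostly below 0. All 10 group means were negative in 7 groups, and EIF3A, EIF3G, EIF3H and EIF3I were negative in all 12. The median of the 10 ran from -0.63 in kestrel liver to -0.11 in chicken fat, where EIF3F and EIF3E were at 0.38 and 0.28. Among all genes 4.28% had negative means in all 12 groups, and 5 of the 43 members did, EIF4H being the fifth. A constant offset of a clone against the reference leaves differences between groups untouched, and none of the 10 subunits was called in any contrast. EIF3H was lowest in duck and turkey liver, at -1.06 and -1.05, against -0.26 in chicken liver (adjusted p = 0.57 and 0.92 by limma).

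In hypothalamus the 10 subunits had lower means in duck than in chicken, which held for 7 of them without duck hypothalamus replicate 3. The differences ran from -0.72 to -0.12, with a median of -0.30 against -0.01 over all genes, and 0 of 10 were called, with 0.327% of all genes called. Without the 3 arrays that stood apart the median was -0.23 against 0.04 over all genes. EIF3B, EIF3G and EIF3L then lay above chicken, by 0.24, 0.25 and 0.24, and the difference of EIF3M went from -0.72 to -0.065. The lowest single arrays of EIF3G, EIF3I, EIF3L and EIF3M over the whole series were all duck hypothalamus replicate 3, at -2.21, -1.71, -1.65 and -2.23. That array also had few neuronal markers above 0, 1 of 10. No subunit was called with it or without it. In turkey and quail hypothalamus 7 and 6 of the 10 subunits lay below chicken.

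None of the factors of start site selection and subunit joining was called in any contrast. EIF1, which guards start codon choice, had group means from -0.11 to 0.37, over 2 clones that correlated at -0.45. Its relative EIF1B ran from -0.59 to 0.84. EIF5, which triggers GTP hydrolysis by EIF2, was highest in chicken hypothalamus, at 0.94, 1.07, 0.39 and -0.05, against 0.13, -0.39 and -1.47 in duck hypothalamus. They overlapped, and the difference of -1.16 did not pass the test (SE 0.41, limma adjusted p = 0.37), and was -0.72 without duck replicate 3. The chicken hypothalamus exceeded the other chicken tissues by 0.84 (SE 0.31, adjusted p = 0.37), and by 0.83 without the 3 arrays that stood apart.

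EIF5A2, a tissue-restricted form of the factor that resolves stalled ribosomes, was at 1.08, -0.17, 0.69 and 0.17 in quail liver and at -0.22, -0.45 and -1.29 in quail hypothalamus. They did not overlap, and the difference was 1.10 (SE 0.41, limma adjusted p = 0.35), with 0.56% of all genes called. EIF6, which keeps the large subunit from joining too early, was above 0 in 11 groups and at -0.05 in chicken hypothalamus. Its kestrel arrays, at 1.15, 1.13 and 1.47, all lay above chicken liver, at 1.05, -0.13, 0.91 and 0.39, with a difference of 0.70 (adjusted p = 0.77). EIF5B varied least, from -0.04 to 0.31, as the mean of 2 clones that correlated at -0.35.

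Over the 16 contrasts 0 of 688 tests of a member passed the limma threshold, and 35 (5.09%) had an unadjusted p under 0.05, against 6.93% over all genes. The precision does not show that the levels were equal. The 95% interval of a difference had a median half-width of 0.81, from 0.40 to 1.34, and 268 intervals (39.0%) lay wholly within 1 log2 unit of 0, which is within a fold of 2. In the other contrasts with chicken, limma called 0.0467% of all genes in turkey liver, 0.513% in quail liver, 0.793% in sparrow liver, 0.14% in turkey hypothalamus and 0.0467% in quail hypothalamus. The median difference of the members was farthest from that of all genes in chicken liver against the other tissues, at -0.15 against -0.01, with 30 of 43 members below 0, and in sparrow against chicken liver, at 0.13 against 0.01. Without the 3 arrays that stood apart the latter was 0.03 against -0.07. In the 7 contrasts that hold one of these arrays, 35 of 301 member differences changed sign without them, none of which passed the test in either fit. All contrasts of another bird with chicken in a tissue share the same 4 chicken arrays.

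**Figure D5:**
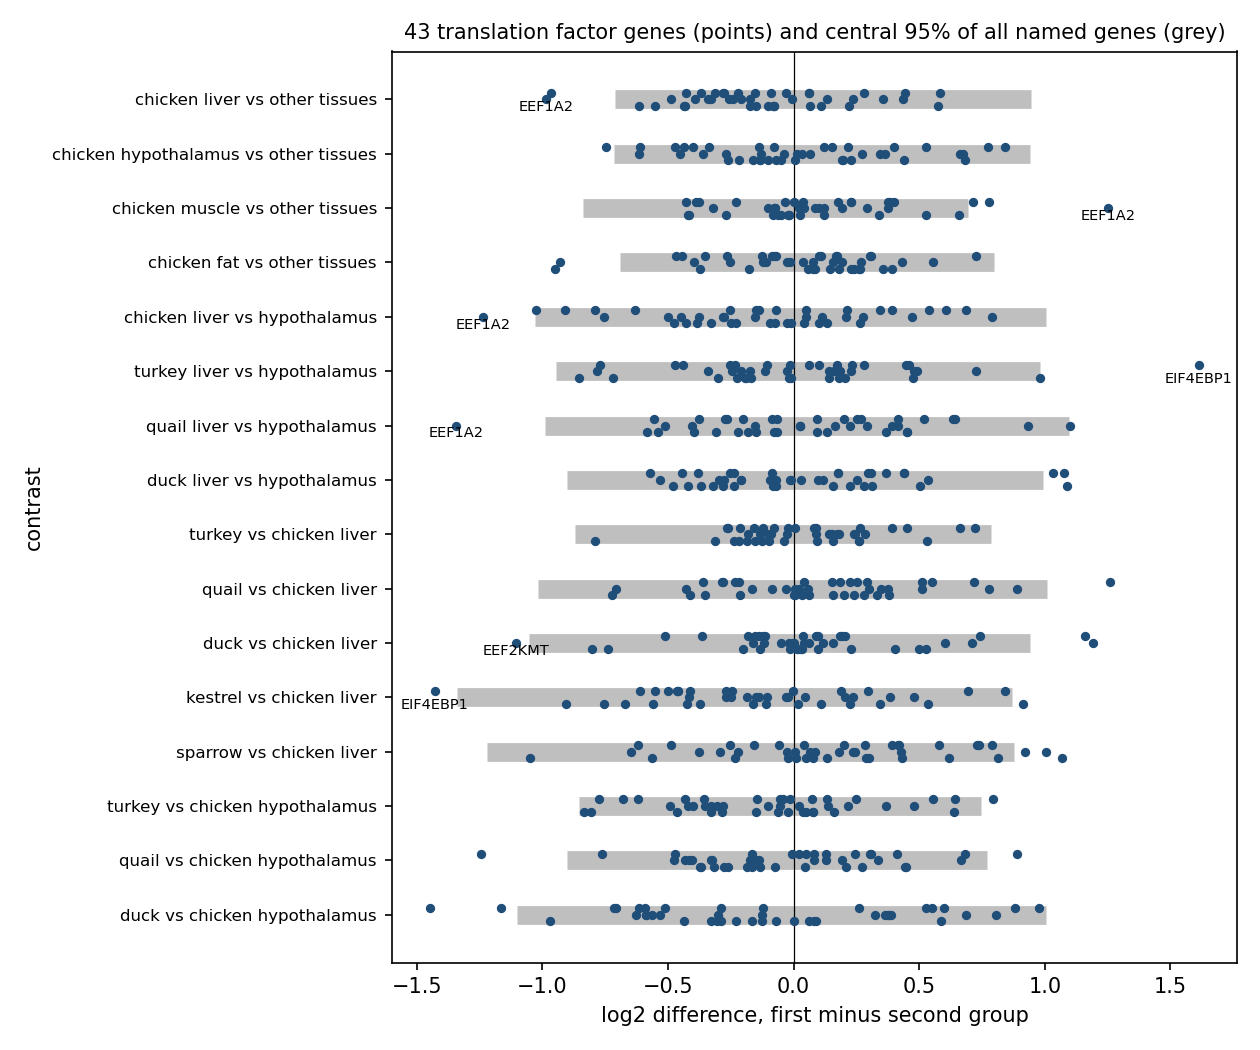
Log2 difference (horizontal axis, first minus second group) of each of the 43 genes (points) in 16 contrasts (vertical axis), with the central 95% of all 6428 genes in grey; EEF1A2, EIF4EBP1 and EEF2KMT are named where their unadjusted p is under 0.01. The points lie largely inside the grey range, with at most 3 of 43 outside it in any contrast.

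Clones of the same gene often read differently, which bears on every gene with several clones. Over the 50 pairs of clones of member genes the correlation over 43 arrays had a median of 0.173 and ran from -0.625 to 0.789. Of these pairs 16 lay below 0 and 4 above 0.5, those of EEF1A2, EEF1B2 and, for 2 pairs, EIF4A2. Over the 4747 pairs of all genes the median was 0.063.

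Over the contrasts, other genes of the translation machinery were called in chicken fat only, where 1.24% of all genes were called. In chicken fat NARS2, a mitochondrial asparaginyl-tRNA synthetase, exceeded the other chicken tissues by 1.98 (SE 0.34, limma adjusted p = 0.00041). RPS28, a protein of the small ribosomal subunit, did so by 1.53 (SE 0.36, adjusted p = 0.018), and PABPC1, the poly(A)-binding protein that bridges to the cap complex, by 1.39 (SE 0.30, adjusted p = 0.0059). Without the 3 arrays that stood apart these differences were 1.93, 1.45 and 1.46, and they passed the test. They were the called genes among 47 ribosomal proteins, 20 tRNA synthetases and 2 genes of poly(A)-binding proteins and partners (PABPC1 and PAIP2B). None was called among 3 release and recycling factors, 3 mitochondrial translation factors and 3 enzymes that modify EIF5A or EEF2. Nor was any of 5 partners and targets of the TOR and stress kinases (ATF4, PPP1CB, RHEB, RPS6KB2 and TSC1), the measured genes of 18 listed.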

How the data were processed

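The deposited values are 1 ratio per spot and array, read as linear ratios of the channels because all lie above 0 with array medians from 0.535 to 1.83. The sources used here do not name the scanner, the correction for background, any normalization or the numerator of the ratio; marker genes of chicken tissues make sample over reference likely. Dyes and the reference pool are as given per the labels. Signal over background is unknown. The number of arrays limits the precision.

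From the deposited ratios, log2 values were computed, each array was centred on its median, spots of a clone were averaged, and clones were averaged to genes. Of 19200 spots 10601 carried 1 symbol, 0 had several and 8599 had no name in the tables used. In the current chicken gene table (GRCg7b) 10455 named spots were found and 146 were not. Those of the members EEF1D and EIF3G were among the 146, so their names rest on the array annotation alone. A linear model with a mean for each of 12 groups was fitted to the 43 arrays with limma 3.58.1 (R 4.3.3). Moderated tests of 16 contrasts and 4 F tests were adjusted by Benjamini-Hochberg across 6428 genes, and the procedure was run on simulated data. The simulated noise was independent between arrays. It held no print block effects or arrays against their labels, so the simulation does not cover these features of the data. Tables and plots used Python 3.11.15, pandas 2.3.3, numpy 2.4.6 and matplotlib 3.10.9. The lowest correlation between arrays of different groups was -0.398, with 11 of 903 pairs under -0.3 and 0 of these within a group, so no array was turned round. For quail hypothalamus replicate 3 the number in the title was used, as the description gives 19.

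Same-numbered arrays were checked for pairing, and the correlation of deviations ran from -0.674 to 0.610. Of 84 entries 36 were above 0.1. Each pair of chicken tissues was entered in both orders, so these counts exceed those of distinct pairs. Turkey liver against hypothalamus was the 1 contrast with every pair above 0.1. Values with the replicate number as a block changed no call. The block gave each number the same effect in all groups, so it does not test pairing of tissues within a species.

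Members and lists were chosen with earlier results of these data known. Every member called in an F test or a contrast was named with values, as were the core factors of each step whatever their values. Other members named for a range, an extreme or groups that did not overlap were chosen after their values were seen.

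Alternatives were no centring, equal median absolute deviations, quantile normalization, centring within print blocks, the median over clones, a replicate block, each array left out in turn and the 3 doubted arrays left out. A fit on clones in place of genes was added after seeing the data.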

Additional observations from a re-analysis of the deposited data

Results flagged for a closer look

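In groups of 4 arrays, single arrays far from the other 3 were found in 9 of 147 groups tested over 21 genes, and chance alone gives about 1 in 20. EIF1 had such arrays in chicken fat replicate 1, at 0.55 against -0.35 to -0.31, and in duck liver replicate 4, at 1.32 against -0.44 to -0.23. Duck liver replicate 3 stood apart for EIF2S1, at -0.30 against 0.26 to 0.36, and for EIF6, at 1.35 against 0.25 to 0.42. Chicken muscle replicate 3 did so for EEF1B2, at -0.035 against 0.68 to 0.70, and for EIF5B, at 0.65 against -0.21 to -0.10. In quail liver, replicate 2 was apart for EIF4G2, at 0.23 against -0.96 to -0.86, and replicate 3 for EEF2KMT, at 0.29 against -0.77 to -0.65. Turkey liver replicate 3 was apart for EIF5, at -1.23 against -0.37 to -0.26.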

How the results depend on the processing

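The count of members called was compared under each alternative. Where the share of all genes called is not given with it, such a count is not read as a result about the members. Without the 3 doubted arrays it went from 0 to 1, EEF1A2, in chicken liver, muscle and fat against the other tissues and in chicken liver against hypothalamus. Quantile normalization gave 1 in chicken muscle (EEF1A2) and 1 in duck against chicken liver (EEF2KMT), and centring within print blocks gave 1, EEF2KMT, in duck liver and in the F test over livers. In the F test over 12 groups the count of 2 fell to 1 without centring, with equal median absolute deviations, with quantile normalization and with the median over clones. With centring within print blocks it stayed at 2, with EEF2KMT called in place of EIF4EBP1 (adjusted p = 0.024). In the main fit that F test gave EEF2KMT an adjusted p of 0.058, and it passed under 4 of 43 single omissions. The fit on clones, added after seeing the data, gave 5 over the 12 groups (EEF1A1, EEF1A2, EEF2KMT, EIF4EBP1 and EIF4G2) and 1 over livers. In that fit a gene was counted when any of its clones passed. The share of all clones called is not given here, so the 5 cannot be compared with the 2 of the main fit. Leaving out single arrays gave 0 to 3 in the F test over 12 groups, 0 to 1 for chicken liver, chicken muscle, turkey liver against hypothalamus, duck liver, kestrel liver and the F test over livers, and 0 in the other comparisons. The contrasts of EEF1A2, EIF4EBP1 and EEF2KMT examined under every alternative kept their direction. Other members did not: without the 3 doubted arrays EIF3B, EIF3G and EIF3L turned from lower to higher in duck against chicken hypothalamus, among 35 of 301 member differences that changed sign, none of them called. The adjusted p of EEF1A2 over 12 groups was 0.084 without centring and 0.057 with the median over clones; that of EIF4EBP1 was 0.10 with equal median absolute deviations, 0.057 with quantile normalization and 0.054 with centring within print blocks. With the replicate number as a block the F test over 12 groups gave adjusted p of 0.033 for EEF1A2 and 0.042 for EIF4EBP1, and no count changed. That block was shared by all groups, so pairing of tissues within a species was not tested. Except where fewer arrays entered, the cause of these changes was not tested. Low intensities could not be filtered, as no spot intensities were used here.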
